A study of Helianthus annuus with 9 samples.

Results

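The predicted new miRNAs of developing sunflower seeds are described here by the length of their mature sequence. They were taken as every entry of type mature whose name begins with novel_mir in the deposited count table, which gave 48 of the 8473 small RNA entries. Of these, 23 had a mature length of up to 24 nt and 24 had a length of 25 nt or longer. The remaining entry, novel_mir67, has no sequence line and was counted in neither class. Seeds came from field-grown Helianthus annuus of the line L-1-OL-1, which the series text calls high in oleic acid, with no other genotype and no treatment. They were collected at 7, 22 and 37 days, with 3 libraries per day. The sources used here do not state what the days count from or whether replicate libraries represent different plants. P-values therefore measure the spread between libraries, and that spread may be technical. The deposited counts, with their totals for exons, introns and intergenic sequence, summed to 31011803 to 34397084 reads per library, called all reads below. Of these, 2208822 to 4050364 stood in small RNA entries.

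Plant miRNAs are cut by the nuclease DCL1 as a duplex from the stem of a folded precursor, and the mature strand is loaded into an Argonaute protein, usually AGO1, where it guides cleavage or translational repression of matching transcripts. Most plant miRNAs are a little over 20 nt long, while the nucleases DCL2, DCL3 and DCL4 cut siRNAs of 21 to 24 nt from double-stranded RNA. Reads longer than these products can also come from fragments of ribosomal or transfer RNA, so mature length is a usual first check on a predicted miRNA. Length alone does not tell what produced a read.

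The sequences below are the mature strands that carry most of the reads or the clearest changes between days, printed 5′ to 3′ in DNA letters as deposited. Capitals mark the seed, bases 2 to 8, which in plants is read together with the rest of the strand. The first set has mature lengths of up to 24 nt.
novel_mir60: cCTACCGAttgaatggtccg
novel_mir46: cTTTGTCGataactgtccatac
novel_mir7: tAAATTGTcgacgaattgattt
novel_mir84: aCAATCAAaagcatgtggta
novel_mir53: gTACTCTCaaaaggccagaagcg
novel_mir38: aAGCTGCCagcatgatctatcttg
The next set has mature lengths of 25 nt or longer.
novel_mir69: gGTGATCGggtgagacgtatgtacc
novel_mir9: aCGTTGAGccttaagaccagctagg
novel_mir98: cAGCCTGCccaccctggaaacgact
novel_mir58: tTAGGATCgtggcgacgtgggcggttc
novel_mir59: cGCGACGTcgcgagaattccactgaacct
novel_mir57: tGGCAGTCcaagtagtagcgggggagtcat
No seed was shared between members of different length classes, and the only shared seed, CTGGTTG, belonged to novel_mir51 and novel_mir65, both of 30 nt.

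Mature lengths ran from 20 to 30 nt, and 7 members each had 22, 24 and 30 nt, the last being the upper edge of the gel band from which the libraries were made. Only 1 member, novel_mir39, had 21 nt. The classes differed in their first base. T, the 5′ base that AGO1 favours (as U) in Arabidopsis, opened 5 of 23 shorter and 13 of 24 longer members. The median GC content of the mature strand was 45.5% in the shorter and 50.9% in the longer class. These are descriptions of the entries, with no test.

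Folding the deposited precursors separated the classes little. The median precursor was 197 nt long in the shorter class and 207.5 nt in the longer class, and the median minimum free energy was -0.43 kcal/mol per base in both. The mature strand lay on the 5′ arm in 19 of 23 and 20 of 24 members. At most 7 mature bases were unpaired with the deposited star strand, the strand opposite the mature one in the duplex, in 12 of 23 and 11 of 24 members. Strands of 20 to 24 nt on both arms occurred in 11 of 23 shorter members and, by definition, in 0 of the longer. A 3′ overhang of exactly 2 nt at both ends, the usual mark of a Dicer cut, was found in 0 of 23 shorter and 5 of 24 longer members (novel_mir51, novel_mir65, novel_mir78, novel_mir85 and novel_mir95). With overhangs of 1 to 3 nt allowed, the counts were 10 and 12. None of these counts sets a limit on the distance between the mature and star strands. That distance was -2 bases, an overlap, in novel_mir18 and novel_mir27, and only 3 bases in novel_mir58 and 4 in novel_mir98. Strands of 20 to 24 nt on both arms, at most 7 unpaired mature bases, overhangs within the looser limit of 1 to 3 nt and a precursor of up to 300 nt were met together by novel_mir7 and novel_mir60; neither has the exact overhang. The sources used here do not state whether the star strands were sequenced.

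The precursors of novel_mir7 and novel_mir84 show the range of these structures, with the mature strand in capitals. In novel_mir7 (7914367 to 7914547 on NC_035435.1, plus strand) 18 of 22 mature bases paired with the star strand and 0 siRNA guides lay inside the precursor. In novel_mir84 (20192413 to 20192580 on NC_035447.1, plus strand) 11 of 20 mature bases paired with the star strand and 7 siRNA guides matched the opposite strand. Positions are as deposited, on a build that the sources used here do not name.
novel_mir7 precursor: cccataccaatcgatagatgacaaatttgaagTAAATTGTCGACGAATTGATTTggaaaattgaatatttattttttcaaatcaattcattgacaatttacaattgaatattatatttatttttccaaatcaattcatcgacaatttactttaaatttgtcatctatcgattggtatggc
novel_mir84 precursor: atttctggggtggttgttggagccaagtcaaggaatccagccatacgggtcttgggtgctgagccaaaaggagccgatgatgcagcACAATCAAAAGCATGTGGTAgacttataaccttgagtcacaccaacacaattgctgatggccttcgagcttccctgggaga

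Predicted miRNAs were a small part of the small RNA reads. With all members included, the mean share of the longer class lay above that of the shorter on each day, an order that rests on a few abundant members. Of the reads in small RNA entries, the shorter class took 0.116% ± 0.00363 on day 7, 0.0770% ± 0.00276 on day 22 and 0.124% ± 0.0121 on day 37 (SD, n = 3). The longer class took 0.155% ± 0.0352, 0.371% ± 0.180 and 0.344% ± 0.185. The 3 libraries of a day lay close together in the shorter class, whereas in the longer class the highest library of day 22 held 0.556% and the lowest 0.196%. At day 7 the ranges of the classes overlapped, since the lowest library of the longer class (0.117%) lay below the highest of the shorter (0.119%). Both values came from day 7 replicate 3, so the order was the other way within that library. On later days the ranges did not overlap. A single member, novel_mir59, supplied 24.4%, 53.8% and 43.4% of the reads of the longer class on the 3 days. Without it the longer class took 0.117%, 0.170% and 0.194%. The abundant novel_mir98 and novel_mir58, described below, remained in these values, and the share without them was not computed. In every library where the longer class led, the reads of novel_mir59, novel_mir98 and novel_mir58 together exceeded the gap between the classes. The order of the classes therefore rests on these members. The shorter class kept novel_mir60, which shares sequence with novel_mir58 and novel_mir59.

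**Figure D1:**
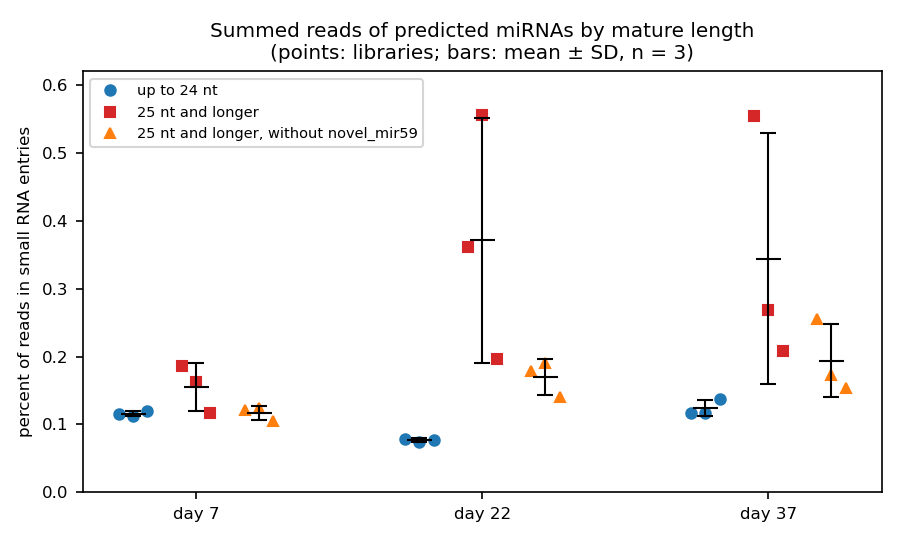
Percent of the reads in small RNA entries (vertical axis) that fell in each length class, by day. Points are libraries and bars are the mean ± SD of 3. The longer class is wide at days 22 and 37 and lies lower and closer together without novel_mir59, between 0.140% and 0.190% at day 22.

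Each member was followed over the 9 libraries. Predicted entries have no count below 10, while known miRNAs go down to 1, so a 0 of a predicted entry was taken to allow up to 9 reads. Of the 432 values of the members, 147 were 0, and 15 members were above 0 in every library. On all 3 days (in at least 1 library of each) 10 of 23 shorter and 11 of 24 longer members were listed. Day 7 alone held 4 of each class, namely novel_mir39, novel_mir28, novel_mir27 and novel_mir21 among the shorter and novel_mir93, novel_mir66, novel_mir2 and novel_mir95 among the longer. Day 37 alone held 0 shorter members and 2 longer ones, novel_mir92 and novel_mir81.

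**Figure D2:**
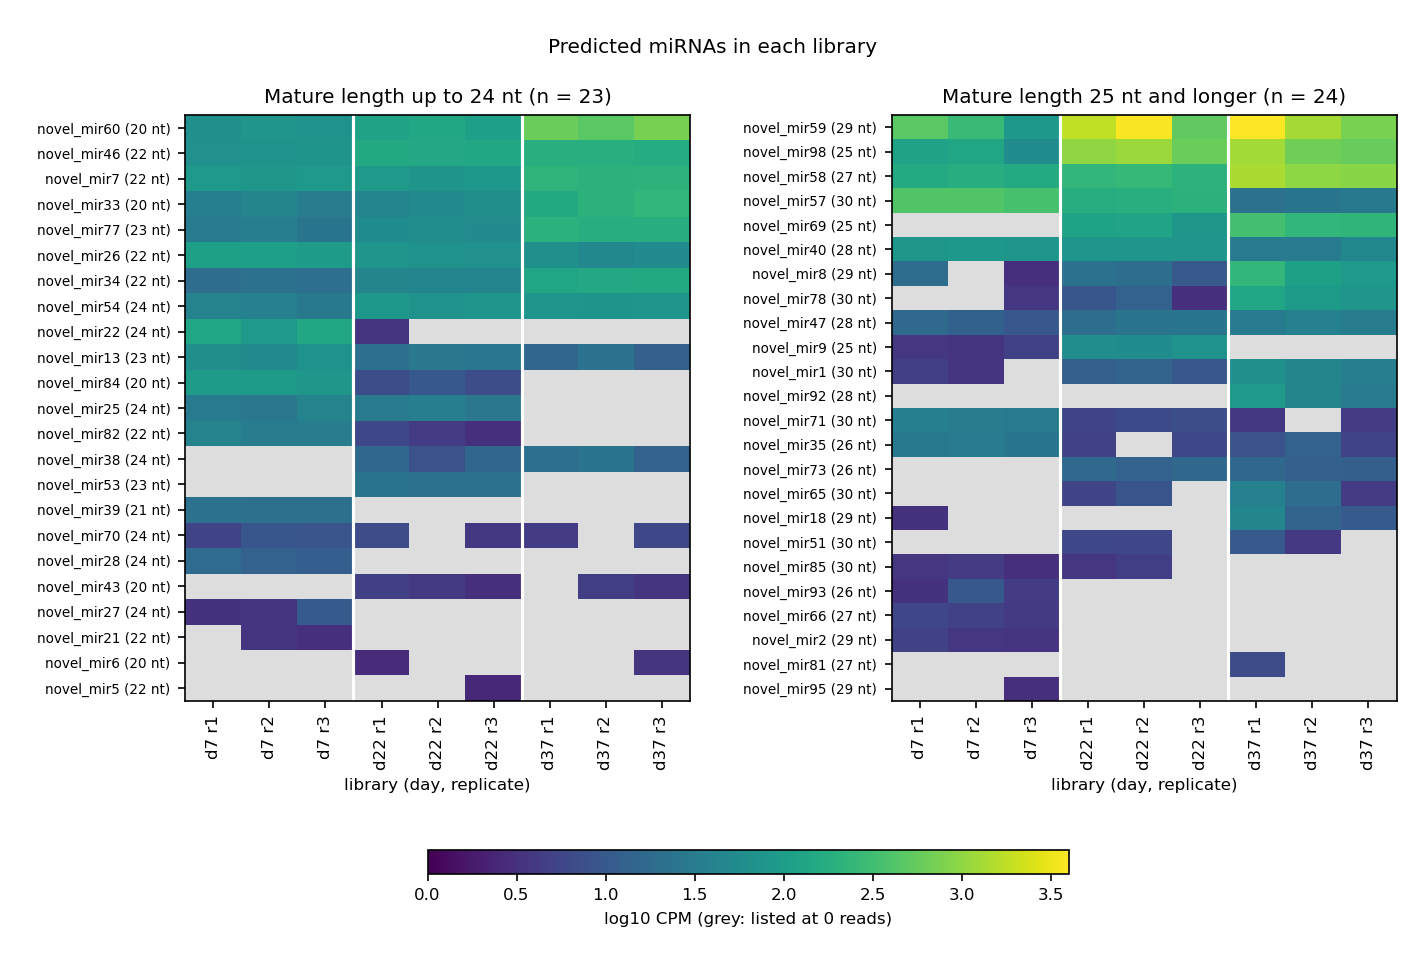
Abundance of 47 predicted miRNAs with a known mature length (rows, most abundant first in each class) in the 9 libraries (columns), as log10 CPM (counts scaled to library size). Grey marks a listed value of 0 reads, and members listed on all days stand mostly at the top of each panel.

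Between day 7 and day 22 the shorter members moved equally often up and down, and the longer ones somewhat more often up. By edgeR's quasi-likelihood test with Benjamini-Hochberg adjustment over all 7294 entries tested, 8 of 20 tested shorter members were higher at day 22 and 8 were lower. Of 22 tested longer members 9 were higher and 6 lower. Over all entries 69.8% were called, 35.3% higher and 34.5% lower, so the shares of both classes lay near this background. By class, the median log2 change was -0.06 in the shorter, 0.68 in the longer, 0.97 over 97 known miRNAs and -0.01 over all entries. Scaling to the totals of known miRNAs, which moves the median of all entries by -0.82 on the log2 scale, gave 2 higher and 10 lower in the shorter class and 4 higher and 7 lower in the longer. Scaling to library totals alone, a move of -0.44, gave 6 higher and 7 lower in the longer class. The counts include members that pass the filter only through the day on which they are high.

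Between day 22 and day 37 fewer members changed. In the shorter class 6 of 20 were higher and 5 lower, in the longer class 7 of 22 were higher and 4 lower, and over all entries 50.6% were called, 18.8% higher and 31.8% lower. Median log2 changes were -0.00 in the shorter and 0.14 in the longer class, against -0.15 over all entries. With library totals alone, a move of -0.47 in the median of all entries, the shorter class had 5 higher and 7 lower. From day 7 to day 37, 9 of 20 shorter members were higher and 9 lower, and 13 of 22 longer members were higher and 8 lower, against 78.7% of all entries called, 33.1% higher and 45.6% lower. The median over this interval was -0.46 in the shorter and 2.82 in the longer class, against -0.57 over all entries, and a day at 0 enters these medians with a size that depends on the prior count. Both the replicate block and zeros at 9 reads gave 12 higher and 4 lower in the longer class over this interval, and the block gave 9 higher and 3 lower from day 7 to day 22. Library totals alone, a move of -0.91 in the median of all entries, gave 10 higher and 9 lower in the longer class from day 7 to day 37. The difference between the classes was not tested.

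**Figure D3:**
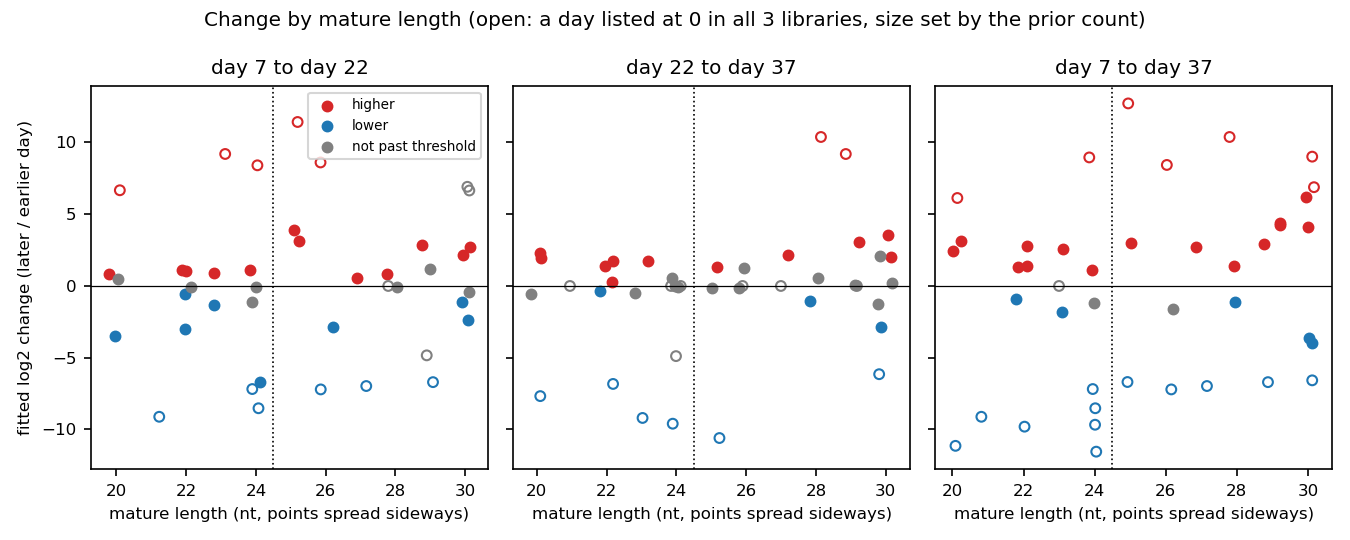
Fitted log2 change (vertical axis) against mature length in nt (horizontal axis, points spread sideways within a length) for 42 tested members in the 3 comparisons. Red is higher, blue lower and grey not past an adjusted p of 0.05, open points have a day at 0 in all 3 libraries, and both directions occur on either side of the dotted line between 24 and 25 nt.

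Among the shorter members that rose, novel_mir7 is the one whose precursor met all the folding limits and held no siRNA guide. It had 261, 260 and 270 reads at day 7, 311, 236 and 318 at day 22 and 576, 612 and 603 at day 37. The libraries of day 37 all lay above those of the earlier days, which overlapped each other. The mean went from 81.6 ± 7.81 CPM (counts scaled to library size with TMM factors) at day 22 to 213 ± 9.11 at day 37, a log2 change of 1.38 (SE 0.0907, adjusted p = 5.56e-06 in edgeR). The change from day 7 to day 22 depended on the scaling. It did not pass with TMM (log2 -0.06, adjusted p = 0.592 in edgeR) and was called lower with RLE size factors (-0.40), DESeq2 (-0.40), library totals (-0.50) and known miRNA totals (-0.83).

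The 22-nt member novel_mir46 rose early. It had 196, 220 and 235 reads at day 7, 546, 481 and 533 at day 22 and 483, 550 and 485 at day 37. Its CPM rose from 69.7 ± 3.74 to 148 ± 9.22 between day 7 and day 22 (log2 1.08, SE 0.0830, adjusted p = 1.24e-05 in edgeR), with no overlap, but scaled to known miRNA totals the rise was 0.30 and did not pass (adjusted p = 0.101). The further log2 change of 0.28 to day 37 passed in edgeR (adjusted p = 0.0187), did not pass on leaving out day 22 replicate 2 or 3 or day 37 replicate 1 or 2 (0.26 to 0.29) or with the replicate block (0.28), and went to 0.00 over all reads and to -0.19 with library totals alone. The 24-nt member novel_mir54 went from 119, 123 and 92 reads to 291, 218 and 303 and had 201, 221 and 222 at day 37. Its libraries of day 7 lay below all the others, a log2 change of 1.09 by day 22 (SE 0.141, adjusted p = 0.000195 in edgeR) that was 0.32 and did not pass with known miRNA totals (adjusted p = 0.0937). Its later change did not pass with TMM (log2 -0.00, adjusted p = 1 in edgeR), was called higher with known miRNA totals (0.58) and was called lower with library totals (-0.48).

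Of the shorter members that fell, several reached 0. The 24-nt member novel_mir22 had 382, 287 and 438 reads at day 7, then 12, 0 and 0 at day 22, and 0 in the 3 libraries of day 37. At day 37 it was at least 37.1-fold lower than at day 7, taking each 0 as 9 reads. The 20-nt member novel_mir84 had 290, 290 and 255 reads at day 7, 26, 32 and 27 at day 22 and 0 in all libraries of day 37. By day 22 it had fallen to 8.13 ± 1.60 from 89.7 ± 9.16 CPM (log2 -3.47, SE 0.178, adjusted p = 1.23e-05 in edgeR), and it was at least 28.0-fold lower at day 37 than at day 7. The 22-nt novel_mir82 took a like course, with 120, 102 and 108 reads, then 21, 14 and 12, then 0. The 24-nt novel_mir25 held 88, 86 and 128 reads at day 7 and 109, 112 and 102 at day 22 before 0 in all libraries of day 37. It was at least 9.60-fold lower at day 37 than at day 22. Its earlier change did not pass with TMM (log2 -0.07, adjusted p = 0.771 in edgeR) and was called lower with known miRNA totals (-0.86). The 21-nt novel_mir39 was listed at 68, 69 and 68 reads at day 7 and at 0 in the 6 later libraries, at least 8.57-fold lower at day 22. The 24-nt novel_mir28 had 54, 43 and 38 reads at day 7 and 0 afterwards. In the other direction, the 20-nt novel_mir43 went from 0 at day 7 to 17, 13 and 12 reads at day 22 and 0, 14 and 10 at day 37, close to the lowest listed count.

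Slower falls were seen in novel_mir26 and novel_mir13. The 22-nt novel_mir26 had 332, 345 and 299 reads at day 7, 274, 225 and 256 at day 22 and 166, 143 and 157 at day 37. Its CPM fell from 105 ± 9.75 to 71.5 ± 6.20 and 55.6 ± 8.18, and the first step gave a log2 change of -0.55 (adjusted p = 0.00504 in edgeR). The second step of -0.37 (adjusted p = 0.0491) was lost on leaving out any library other than day 37 replicate 1, with values of -0.39 to -0.26, and with RLE size factors (-0.21), DESeq2 (-0.22) or no filter on low counts (-0.37), and turned to 0.22 with known miRNA totals. The 23-nt novel_mir13 went from 180, 164 and 222 reads to 72, 89 and 99 and then to 40, 70 and 36. It was lower at day 22 by a log2 change of -1.30 (SE 0.224, adjusted p = 0.000897 in edgeR), and its later change did not pass (-0.52, adjusted p = 0.109). That later change was called lower with library totals (-0.99), over all reads (-0.80), with the TPM column (-0.87) and without day 37 replicate 2 (-0.81).

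A mid-stage peak was shown by 1 member of each class. The 23-nt novel_mir53 (22937337 to 22937704 on NC_035444.1, plus strand) had 85, 75 and 86 reads at day 22 and 0 in the 6 other libraries. It was at least 8.04-fold higher at day 22 than at day 7 and at least 7.26-fold lower again at day 37. The 25-nt novel_mir9 (55117526 to 55117854 on NC_035435.1, plus strand) had 11, 11 and 16 reads at day 7, 206, 183 and 265 at day 22 and 0 in the libraries of day 37. The mean was 15.1-fold higher at day 22 than at day 7 (log2 3.90, SE 0.195, adjusted p = 1.10e-05 in edgeR) and at least 19.2-fold lower at day 37 than at day 22.

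Late members of the longer class were led by novel_mir69, of 25 nt. It was listed at 0 in the libraries of day 7, at 430, 405 and 307 reads at day 22 and at 875, 734 and 638 at day 37. The 3 days did not overlap, with 109 ± 26.0 CPM at day 22 and 269 ± 59.9 at day 37. It was at least 37.8-fold higher at day 22 than at day 7 and rose 2.45-fold more to day 37 (log2 1.29, SE 0.237, adjusted p = 0.00421 in edgeR). The 26-nt novel_mir73 was also at 0 at day 7, then at 60, 43 and 61 reads at day 22 and 42, 38 and 35 at day 37, so its later libraries overlapped in CPM. In the shorter class, the 24-nt novel_mir38 had the same listing, with 0 at day 7, 58, 27 and 59 reads at day 22 and 54, 74 and 39 at day 37. The letters of novel_mir38 resemble those of miR167, a conserved plant miRNA that targets auxin response factors, shifted along the precursor. That is a reading from general knowledge, and no reference miRNA was aligned.

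The 30-nt novel_mir57 showed the steepest fall among the 15 members above 0 in all libraries. It had 1250, 1317 and 1134 reads at day 7, 605, 594 and 786 at day 22 and 60, 75 and 80 at day 37. The 3 days did not overlap, and CPM went from 397 ± 36.3 to 187 ± 15.3 and 25.4 ± 2.58. Over the whole interval it was 15.6-fold lower (log2 -3.96, SE 0.123, adjusted p = 4.67e-08 in edgeR). Its length lies outside the usual range of Dicer products, while 29 of its 30 mature bases paired with the star strand in a precursor of 426 nt. Other falls in the longer class were those of novel_mir71 (107, 107 and 101 reads, then 20, 21 and 28, then 10, 0 and 12) and novel_mir35 (83, 96 and 81, then 18, 0 and 23, then 22, 41 and 15). Both were lower at day 22, by log2 -2.37 (adjusted p = 0.00376) and -2.87 (adjusted p = 0.00646 in edgeR), and the first did not pass with the TPM column (-2.16). The 28-nt novel_mir40 had 237 to 291 reads in each library of days 7 and 22 and 79, 95 and 137 at day 37, a log2 change of -1.06 between the last days (adjusted p = 0.000784 in edgeR). Its change from day 7 to day 22 did not pass with TMM (-0.07, adjusted p = 0.723) and was called lower with DESeq2 (-0.41), library totals (-0.52) and known miRNA totals (-0.84).

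By position, no pair of members overlapped. The only overlap in the deposited predictions joined novel_mir47 on the plus strand with novel_mir48 on the minus strand of NC_035443.1, over 211 bases, and novel_mir48 is not among the listed mature entries. The 28-nt novel_mir47 had 50, 42 and 30 reads at day 7, 69, 79 and 98 at day 22 and 78, 116 and 96 at day 37, and was higher at day 22 with TMM (log2 0.82, adjusted p = 0.00990 in edgeR). That call was lost with RLE size factors (0.48), DESeq2 (0.48), library totals (0.38) and known miRNA totals (0.05). Sequence sharing was more common than shared position. Members were joined where mature strands shared 14 bases or where a mature strand lay inside the precursor of another member, which gave 4 groups, novel_mir33 with novel_mir34, novel_mir77 and novel_mir78, novel_mir58 with novel_mir59 and novel_mir60, novel_mir6 with novel_mir18, and novel_mir2 with novel_mir85. The sources used here do not state how a read that matches several members was counted, so members of a group are not independent.

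In the first group the mature strands were offset windows on a shared core, which stands in capitals below to show how length classes can cut across related sequence.
novel_mir33: CCGTTCCAAGTTGTGagttg
novel_mir34: gcCCGTTCCAAGTTGTGagttg
novel_mir77: gcttgcCCGTTCCAAGTTGTGag
novel_mir78: cacaagctggcttgcCCGTTCCAAGTTGTG
The core of 15 bases began at base 1 of novel_mir33, base 3 of novel_mir34, base 7 of novel_mir77 and base 16 of novel_mir78, and the whole of novel_mir33 lay inside novel_mir34. All of these members were highest at day 37. The 20-nt novel_mir33 had 106, 138 and 105 reads at day 7, 149, 167 and 232 at day 22 and 397, 615 and 694 at day 37. The 30-nt novel_mir78 had 0, 0 and 12 reads, then 32, 44 and 12, then 341, 276 and 212. The 22-nt novel_mir34 and the 23-nt novel_mir77 stood at 338 to 444 and at 499 to 530 reads at day 37. From day 7 to day 37 the means rose 5.37-fold for novel_mir33, 6.86-fold for novel_mir34, and 5.99-fold for novel_mir77, with adjusted p of 1.13e-05, 9.45e-08 and 4.42e-07 in edgeR. The day 7 mean of novel_mir78 rests on 12 reads in 1 library, so its log2 change of 6.23 (adjusted p = 0.000167 in edgeR) was 4.93 with zeros taken as 9 reads. Its change to day 22 (log2 2.69, adjusted p = 0.0362 in edgeR) did not pass on leaving out day 7 replicate 1 or 2, day 22 replicate 1 or 2, or day 37 replicate 2 (2.03 to 2.69). It was also lost with zeros at 9 reads (1.39), known miRNA totals (1.91), library totals (2.24), RLE size factors (2.35), DESeq2 (2.42) and the replicate block (2.61), and these days overlapped.

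**Figure D4:**
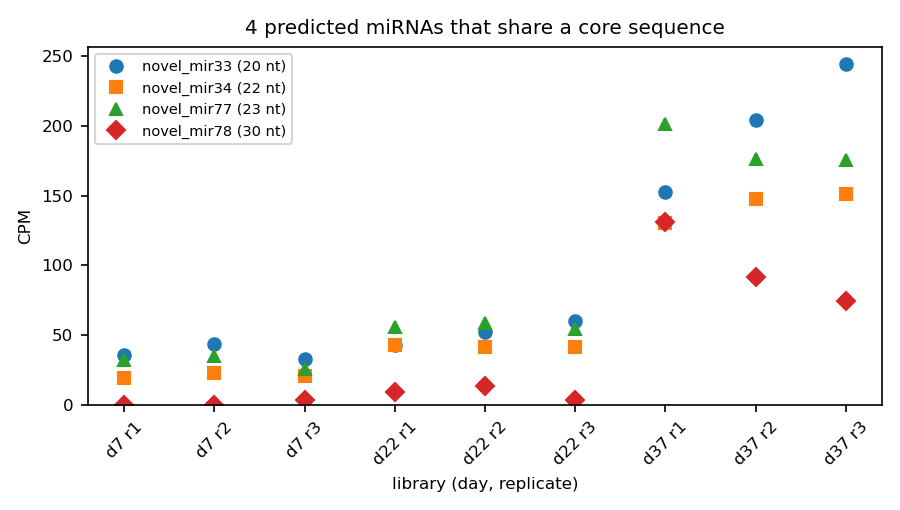
CPM (vertical axis) of the 4 members that share a core of 15 bases, in each of the 9 libraries (horizontal axis). Each marker is a library, all 4 members lie higher in every day 37 library than in any earlier one, and novel_mir78 is at 0 in day 7 replicates 1 and 2.

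In the pair of novel_mir2 and novel_mir85 the shared core covered 20 bases, again in capitals.
novel_mir2: TCGCCTCTGAAGCTCAAAAAtatatcatc
novel_mir85: aTCGCCTCTGAAGCTCAAAAAcatgtcgtc
Both were low. The 29-nt novel_mir2 was listed at 15, 12 and 11 reads at day 7 and 0 later, and the 30-nt novel_mir85 at 11, 14 and 10 reads at day 7, 13, 15 and 0 at day 22 and 0 at day 37. These values stand close to the lowest listed count of 10, so their course after day 7 was not resolved at this depth.

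The most abundant members of both classes stood in the group of novel_mir58, novel_mir59 and novel_mir60, whose precursors contain each other's mature strands. The precursor of novel_mir60 is shown, with its mature strand in capitals. The strands of novel_mir58 and novel_mir59 lie downstream in the same run.
novel_mir60 precursor: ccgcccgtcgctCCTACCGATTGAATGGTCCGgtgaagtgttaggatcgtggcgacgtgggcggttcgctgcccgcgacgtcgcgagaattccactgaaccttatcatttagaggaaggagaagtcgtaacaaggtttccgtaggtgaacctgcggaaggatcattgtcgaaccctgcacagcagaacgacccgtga
These letters resemble the 3′ end of the plant small-subunit ribosomal RNA gene, and those of novel_mir98 resemble large-subunit ribosomal RNA, from general knowledge and with no ribosomal reference aligned. The 20-nt novel_mir60 had 190, 243 and 215 reads at day 7, 421, 451 and 418 at day 22 and 1611, 1458 and 2086 at day 37. Its days did not overlap, and CPM rose from 69.4 ± 6.14 to 123 ± 16.2 and 613 ± 125, with a log2 change of 2.32 in the second step (SE 0.171, adjusted p = 1.07e-05 in edgeR). The first step (0.83, adjusted p = 0.00219) did not pass with library totals (0.37) or known miRNA totals (0.05). The 27-nt novel_mir58 had 472, 551 and 501 reads, then 854, 836 and 813, then 3567, 2926 and 2568. The second step was a log2 change of 2.19 (SE 0.169, adjusted p = 1.40e-05 in edgeR). Its first step, 0.54 (adjusted p = 0.0164), did not pass on leaving out any day 7 library or day 22 replicate 2 (0.45 to 0.51), nor with RLE size factors (0.20), DESeq2 (0.20) or library totals (0.09), and turned to -0.23 with known miRNA totals.

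The 29-nt novel_mir59 was the most variable of the abundant members. It had 1421, 886 and 266 reads at day 7, 6392, 12177 and 2050 at day 22 and 11233, 3881 and 2115 at day 37. The third replicate was lowest on each day, and days 22 and 37 overlapped. Its rise by day 22 (281 ± 199 to 2049 ± 1639 CPM, log2 2.87, SE 0.966, adjusted p = 0.0267 in edgeR) did not pass on leaving out day 7 replicate 2 or 3 or day 22 replicate 1 or 2 (2.07 to 2.94), nor with known miRNA totals (2.11). Its change to day 37 (2.92, adjusted p = 0.0220) did not pass on leaving out day 7 replicate 2 or 3 or day 37 replicate 1 (1.86 to 2.87), nor with library totals (1.98). The 25-nt novel_mir98 had 347, 433 and 181 reads, then 3509, 3702 and 2395, then 3224, 1988 and 1626, and was 8.95-fold higher at day 22 than at day 7 (log2 3.16, SE 0.441, adjusted p = 0.000298 in edgeR). The entry for small-subunit ribosomal RNA stood at 18341 ± 2233, 35903 ± 8795 and 146241 ± 33162 CPM on days 7, 22 and 37. The large-subunit entry stood at 1994 ± 694, 5565 ± 2405 and 29428 ± 17622. From day 22 to day 37 the changes of novel_mir59 and novel_mir98 did not pass, while novel_mir58 and novel_mir60 were called higher. The part of ribosomal fragments in these members was not tested.

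Members with the B-box motif of transfer RNA genes (its 11-base consensus, searched on both strands of the precursor) were also late or low. The motif was in the precursors of novel_mir6, of 20 nt, and of novel_mir18, novel_mir81 and novel_mir92, of 27 to 29 nt, and in 5 of all 95 predicted precursors (5.26%). The 28-nt novel_mir92 was at 0 in the 6 libraries of days 7 and 22 and at 222, 131 and 86 reads at day 37, at least 20.7-fold higher than at day 22. The 29-nt novel_mir18 had 10 reads in day 7 replicate 1, 0 in the other libraries of days 7 and 22, and 118, 42 and 30 at day 37, at least 9.08-fold higher than at day 22. Its change from day 7 to day 37 (log2 4.36, adjusted p = 0.0198 in edgeR) did not pass on leaving out day 7 replicate 2 or 3 or day 37 replicate 1 (3.42 to 3.74), nor with DESeq2 (4.21). The others had 18 reads (novel_mir81, day 37 replicate 1) or 10 reads in each of 2 libraries (novel_mir6). Day 37 replicate 1 was also the highest for the transfer RNA entry, with 13234 reads against 1792 and 2252, after 949 to 1506 at day 22 and 74 to 139 at day 7. The part of transfer RNA fragments in these members was not tested.

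Other members of the longer class rose late with a wide spread. The 29-nt novel_mir8 had 58, 0 and 10 reads at day 7, 76, 65 and 39 at day 22 and 619, 338 and 244 at day 37. Its day 37 libraries lay above all others, a log2 change of 3.07 from day 22 (SE 0.830, adjusted p = 0.0142 in edgeR) that did not pass on leaving out day 22 replicate 3 (2.81) or with the TPM column (2.66). The 11 siRNAs in its precursor summed to 1996 ± 178, 2866 ± 178 and 8886 ± 579 CPM on days 7, 22 and 37. The part of ribosomal fragments in novel_mir8 was not tested either. The 30-nt novel_mir1 had 14, 11 and 0 reads, then 44, 45 and 37, then 169, 135 and 98, and was higher in both steps (log2 2.14 and 2.00, adjusted p = 0.0180 and 0.0113 in edgeR). The first step did not pass with known miRNA totals (1.38), nor the second with the TPM column (1.64). The 30-nt pair with a shared seed was scattered, with novel_mir65 at 20, 28 and 0 reads at day 22 and 98, 59 and 12 at day 37. Its partner novel_mir51 had 21, 19 and 0 at day 22 and 26, 12 and 0 at day 37. In both, replicate 3 was the lowest library of day 22 and of day 37.

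The spread between libraries of a day was described by the ratio of the highest to the lowest library in CPM. At day 37, over members above 0 in all 3 libraries, the median ratio was 1.25 in 10 shorter members and 1.88 in 15 longer ones. At day 22 the medians were 1.30 and 1.29, and at day 7 they were 1.31 and 1.41. Ratios of 3 or more were found in novel_mir27 at day 7 among the shorter members. Among the longer they were found in novel_mir59 on every day, in novel_mir78 at day 22, and in novel_mir65 and novel_mir18 at day 37, with 8.92 in novel_mir65 as the highest.

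Listed siRNA guides lay inside many of the precursors. Exact matches on either strand placed 118 distinct siRNA entries in 24 member precursors, 13 of the shorter and 11 of the longer class. Of these siRNAs 66.9% were 21 nt long, 22.0% were 22 nt and 7.63% were 24 nt, against 35.8%, 22.1% and 37.3% of the 7732 listed siRNAs with a guide sequence. In Arabidopsis, 21-nt siRNAs are mainly cut by DCL4 and 24-nt siRNAs by DCL3. Guides can match more than 1 place in the genome, so a match does not show that the siRNA came from that precursor.

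The siRNAs placed in the precursors of changed members were counted by their own calls. Between day 7 and day 22 the precursors of members that were higher held 95 tested siRNA placements, of which 77 were higher, 18 did not pass and 0 were lower, against 34.9% higher and 35.6% lower over 6953 tested siRNAs. The precursors of members that were lower held 28, of which 21 were lower, 2 higher and 5 did not pass. Between day 22 and day 37 the counts were 41 higher of 52 for members that were higher and 26 lower of 37 for members that were lower, against 18.4% higher and 32.4% lower over the same siRNAs. Placements are not independent, since novel_mir59 and novel_mir60 hold the same 16 siRNAs and a precursor can hold many, so no test was made. The group of novel_mir58, novel_mir59 and novel_mir60 supplied 34 of the 77 higher placements from day 7 to day 22 and 24 of the 41 from day 22 to day 37. Without that group the counts were 43 of 51 and 17 of 24. Of these 17, novel_mir8 alone supplied 11, all of its tested placements, while novel_mir46 supplied 2 of 9. Over all member precursors, 2 placements in the shorter and 5 in the longer class lay within the mature strand, in either orientation, or contained it.

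The precursors of novel_mir84, novel_mir57, novel_mir9 and novel_mir53, chosen after their values were seen, show the courses side by side. The 7 siRNAs in novel_mir84 summed to 541 ± 26.4, 62.7 ± 3.74 and 4.61 ± 0.583 CPM on days 7, 22 and 37, and all 7 were of 21 nt on the strand opposite the mature one. The 4 in novel_mir57 summed to 1208 ± 80.0, 406 ± 9.43 and 50.4 ± 4.72. The 12 in novel_mir9 summed to 74.4 ± 2.00, 791 ± 85.3 and 41.9 ± 2.65, and the 7 in novel_mir53 to 1.25 ± 2.17, 334 ± 12.1 and 17.2 ± 3.62. In each of these precursors the siRNA sum was highest on the day on which the predicted miRNA was highest. Some guides lay within the mature strand in either orientation or contained it, 2 of 7 in novel_mir53 and 1 of 12 in novel_mir9. In novel_mir84 and novel_mir57 the number was 0. Some other precursors did not share the course of their member. The 7 siRNAs in novel_mir26, a member that fell, summed to 188 ± 4.02, 260 ± 26.1 and 236 ± 24.2 CPM on days 7, 22 and 37. The 1 siRNA in novel_mir93, a member listed on day 7 alone, stood at 58.1 ± 10.3, 61.6 ± 4.18 and 58.0 ± 6.54 CPM.

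**Figure D5:**
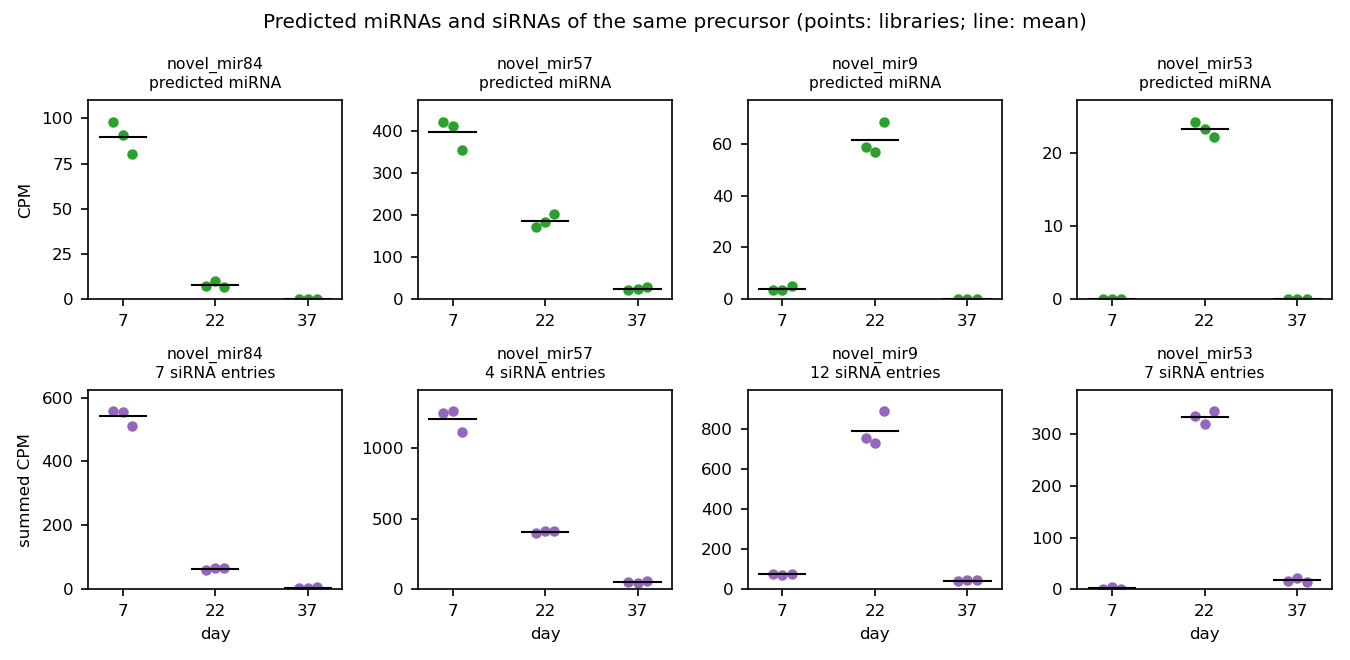
CPM of 4 predicted miRNAs (upper row) and summed CPM of the siRNA entries matched to the same precursor (lower row), by day. Points are libraries and lines are means, and each precursor has its highest mean on the same day in both rows, day 7 for novel_mir84 and novel_mir57 and day 22 for novel_mir9 and novel_mir53.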

How the data were processed

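Small RNA from 9 seed libraries was sequenced on a BGISEQ-500, per the labels, after gel selection and ligation of adapters with molecular identifiers. The submitters' processing notes name Bowtie2. Neither the build, the counter, the miRNA predictor nor any collapse by identifiers is stated in these sources. The authors' deposited table holds a whole-number count of reads per entry and library, without normalization per the file headers. A further deposited column is headed TPM, stands at or near the count and was treated as a score and used only as an alternative. Mature, star and precursor sequences and positions, and siRNA guides, are other values deposited by the authors and were used as they stand.

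The 3 totals for exons, introns and intergenic sequence were left out. Counts were fitted in edgeR 4.0.16 (R 4.3.3) with TMM factors, filterByExpr by day and one quasi-likelihood fit of all 9 libraries, adjusted by Benjamini-Hochberg over the 7294 entries tested, with a threshold of 0.05; 43 members were tested. CPM are means ± SD of 3 libraries, based on small RNA reads. Folds against a day at 0 take each 0 as 9 reads, an assumption, and cover neither counting error nor spread. Precursors were folded with RNAfold 2.7.2. The fit was also run on simulated counts with an equal spread for all entries and no lowest listed count. That setting differs from these data, so it does not give the error rate here.

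Named members are the 5 most abundant per class, those called without overlap at 10 CPM or more on the higher day, those that share sequence or position, those above 0 in all libraries and those of 20 or 30 nt; a few others are named in short lists or for low counts. Members and lists were chosen with earlier results of these data known. Alternatives were other scalings, filters, DESeq2 1.42.0, the TPM column in limma 3.58.1 with a pseudocount of 1, the replicate number as a block, zeros at 9 reads and leaving out each library. Scaling to known miRNA totals, taking 1 entry per sequence-sharing group and counting siRNA placements without novel_mir58, novel_mir59 and novel_mir60 were chosen after seeing the data.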

Additional observations from a re-analysis of the deposited data

How the results depend on the processing

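The numbers of members called in each class and comparison stayed within 1.5 times the reported count under every alternative. Leaving out each library in turn gave, in the shorter class, 16 to 17 called from day 7 to day 22, 9 to 10 from day 22 to day 37 and 18 to 19 from day 7 to day 37, and in the longer class 12 to 17, 10 to 11 and 18 to 22. Over all tested entries, libraries of different days with the same replicate number correlated weakly (-0.03 to 0.12), and those with different numbers had correlations of -0.13 to 0.04. In the longer class replicate 3 held the lowest share on each day (0.117%, 0.196% and 0.209%). Whether the replicate number pairs libraries was not settled. With the replicate block 14, 10 and 16 shorter and 12, 10 and 16 longer members were called, and 15 of 126 results for single members were lost and 1 gained. With zeros at 9 reads 14 were lost and 2 gained. The summed shares moved with their base: over all reads they were 0.00811%, 0.00806% and 0.0148% in the shorter and 0.0109%, 0.0387% and 0.0410% in the longer class at days 7, 22 and 37. Without its most abundant member the shorter class took 0.106%, 0.0647% and 0.0796%, and the longer 0.117% and 0.170% at days 7 and 22. With 1 entry per sequence-sharing group the shorter class took 0.0991%, 0.0547% and 0.0558%, and with the TPM column 0.122% and 0.0841% at days 7 and 22. Changes reversed in novel_mir58 from day 7 to day 22 (known miRNA totals, -0.23) and, from day 22 to day 37, in novel_mir46 (library totals -0.19, TPM column -0.030), novel_mir26 (known miRNA totals, 0.22) and novel_mir54 (known miRNA totals, 0.58); the cause was not tested. Depth limits the members near 10 reads, whose absence on a day may mean up to 9 reads.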

Other observations

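The deposited predictions hold more entries than the count table lists as mature. Of 95 predicted miRNAs with sequences, 33 were of up to 24 nt and 62 of 25 nt or longer. The count table lists 69.7% of the shorter and 38.7% of the longer predictions as mature entries. The unlisted ones number 10 shorter and 38 longer, and 19 of the 26 predictions of 30 nt are among them. Of the unlisted shorter predictions 1 of 10 met all the folding limits used above, and 3 of 10 had both strands between 20 and 24 nt. The median star length was 25.5 nt in the unlisted shorter and 29.0 nt in the unlisted longer predictions, against 23.0 and 28.0 nt in the listed ones. Fewer siRNA placements were on the strand opposite the mature one in unlisted longer predictions (26 of 101) than in listed longer ones (49 of 82). Placements repeat a guide that matches several precursors, and a few precursors hold many of them. Among the listed, novel_mir58 and novel_mir59, which share sequence, had 8 of 12 and 12 of 16 on the opposite strand. Among the unlisted, novel_mir20 and novel_mir50 had 6 of 31 and 0 of 13. These are counts of the files, with no test.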
